A study of Mus musculus with 10 samples.

Results

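Irf2bp2 and 5 genes related to it were followed in the kidneys of mice given the antihypertensive drug rilmenidine. Irf2bp2 encodes interferon regulatory factor 2 binding protein 2. The other genes were its paralogs Irf2bp1 and Irf2bpl, its binding partners Irf2 and Vgll4, and Nfatc1, a member of the NFAT family. They were taken by gene symbol as 6 of 43629 listed genes, and all 6 were among the 10055 genes with enough counts to be tested. Irf2bp2 was chosen because it ranked high by p among the genes lower with rilmenidine, so its difference between the groups is given as a description with no test, whereas the other 5 were chosen by name.

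The kidneys came from male UM-HET3 mice, a genetically heterogeneous cross in which each animal carries its own combination of the founder strains' alleles. Control mice (n = 6) were kept on the base diet, and treated mice (n = 4) received the same diet containing 10 ppm rilmenidine, begun at an age of 3 months and continued for 1 month, so that both groups were 4 months old at collection. Rilmenidine is an agonist of imidazoline receptors. Each kidney gave 1 library of counts from the 3′ ends of transcripts, with 863605 to 2559118 counts in control and 1813465 to 3232063 in rilmenidine libraries.

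IRF2BP proteins carry a zinc finger and a RING domain and act mainly as transcriptional corepressors, and IRF2BP2 was identified through its binding to the repressor domain of IRF2. IRF2BP2 also binds VGLL4, a cofactor of the TEAD transcription factors of the Hippo pathway, and has been described as a repressor of NFAT activity. Calcineurin brings most NFAT factors into the nucleus. In other tissues it is known for restraining inflammatory gene expression in macrophages and for its link to the angiogenic factor VEGFA.

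Irf2bp2 (ENSMUSG00000051495) lies on the minus strand of chromosome 8 at chr8:126588296-126593986 (GRCm38), with 5080 exonic bases of which 1713 are coding. Irf2bp1 lies at chr7:19004044-19006777 and Irf2bpl at chr12:86880701-86884798. The paralogs share a conserved stretch near the start of the coding sequence, and a 120-base window of it is printed from the GENCODE transcripts because the counts of the 3 genes are compared with each other. Capitals mark the 86 positions that are identical in all 3 genes.
Irf2bp2, coding bases 46 to 165: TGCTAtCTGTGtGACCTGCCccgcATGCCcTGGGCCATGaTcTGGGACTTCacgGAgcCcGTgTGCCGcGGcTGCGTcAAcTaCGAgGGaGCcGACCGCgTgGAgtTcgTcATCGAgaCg
Irf2bp1, coding bases 34 to 153: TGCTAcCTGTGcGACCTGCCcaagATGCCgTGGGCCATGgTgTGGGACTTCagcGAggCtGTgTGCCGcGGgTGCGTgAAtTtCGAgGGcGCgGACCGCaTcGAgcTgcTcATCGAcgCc
Irf2bpl, coding bases 40 to 159: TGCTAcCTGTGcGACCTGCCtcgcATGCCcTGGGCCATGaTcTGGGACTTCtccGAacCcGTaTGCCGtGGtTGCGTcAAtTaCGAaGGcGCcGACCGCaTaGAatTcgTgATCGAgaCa

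In this window Irf2bp1 matched Irf2bp2 at 78.3% and Irf2bpl matched it at 85.8% of the positions. Over the whole transcripts the longest run of identical bases was 21 between Irf2bp1 and Irf2bp2, 30 between Irf2bp2 and Irf2bpl, and 20 between Irf2bp1 and Irf2bpl.

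The promoters of the 3 paralogs are printed from RefSeq (GRCm38.p6), from 250 bases before to 50 after the start, because the levels of these genes in the 2 groups are set side by side. Capitals mark GGGCGG on either strand, the core of the GC box that Sp factors bind.
Irf2bp2, chr8:126593937-126594236, minus strand: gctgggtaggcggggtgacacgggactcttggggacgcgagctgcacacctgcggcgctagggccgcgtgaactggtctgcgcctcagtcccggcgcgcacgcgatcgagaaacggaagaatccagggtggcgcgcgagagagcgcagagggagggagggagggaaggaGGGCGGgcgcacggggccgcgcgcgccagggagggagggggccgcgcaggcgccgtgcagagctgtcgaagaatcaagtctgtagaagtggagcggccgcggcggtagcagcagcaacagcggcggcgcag
Irf2bp1, chr7:19003808-19004107, plus strand: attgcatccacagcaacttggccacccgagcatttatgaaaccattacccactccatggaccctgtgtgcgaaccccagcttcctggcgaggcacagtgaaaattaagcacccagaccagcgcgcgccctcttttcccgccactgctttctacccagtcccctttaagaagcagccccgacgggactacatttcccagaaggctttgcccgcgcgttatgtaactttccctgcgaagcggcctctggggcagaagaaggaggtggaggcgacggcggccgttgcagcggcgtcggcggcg
Irf2bpl, chr12:86884765-86885064, minus strand: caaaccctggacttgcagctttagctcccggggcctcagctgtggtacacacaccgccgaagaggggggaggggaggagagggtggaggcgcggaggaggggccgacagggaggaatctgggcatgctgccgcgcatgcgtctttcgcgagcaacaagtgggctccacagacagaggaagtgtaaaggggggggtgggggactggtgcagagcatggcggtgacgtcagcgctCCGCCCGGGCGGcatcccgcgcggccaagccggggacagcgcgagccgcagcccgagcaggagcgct

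The Irf2bp2 promoter had a GC content of 71.7% and 39 CpG dinucleotides, against 60.0% and 23 for Irf2bp1 and 69.0% and 26 for Irf2bpl, and against medians of 52.7% and 7 over 32851 mouse promoters of the same length. The motif GGGCGG was present 1 time in the Irf2bp2 promoter and 2 times, adjacent on opposite strands, in that of Irf2bpl, and 35.7% of all promoters held it. None of the 3 windows held GAAA followed by any 2 bases and a second GAAA, a form of the IRF site found in 3.44% of promoters, or GGAATG, the TEAD site, found in 14.7%. Nor did they hold CCAAT (37.4%) or TATAAA (13.6%), all searched on both strands.

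Irf2bp2 was lower in every rilmenidine kidney than in any control kidney. Levels are given as CPM, read counts rescaled so that kidneys of different depth can be compared, which are not divided by transcript length and so are compared between kidneys and not between genes. Control kidneys 1 to 6 had 52.8, 46.1, 57.3, 70.6, 65.9 and 44.1 CPM of Irf2bp2, and rilmenidine kidneys 1 to 4 had 30.7, 35.3, 29.0 and 29.4 CPM. The highest rilmenidine kidney was therefore below the lowest control kidney, and the treated kidneys lay closer together than the controls. The mean was 56.1 ± 10.6 CPM in control (SD, n = 6) and 31.1 ± 2.89 CPM in rilmenidine kidneys (n = 4), or 55.4% of the control mean. Counting error alone would give an SD of 6.35 CPM in the control and 3.75 CPM in the rilmenidine libraries, since each held 47 to 114 reads of the gene. The log2 fold change, rilmenidine minus control throughout, was −0.85 (SE 0.17).

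These values chose the gene, the 1 of the 6 whose groups did not overlap. Of all 10055 tested genes, 0.875% were lower and 0.796% higher with groups that did not overlap, and 6.13% were lower at an unadjusted p under 0.05, while 0 genes had a Benjamini-Hochberg adjusted p under 0.05 (edgeR, quasi-likelihood test). Irf2bp2 had rank 2 by p among the lower genes, between Khdc4 (log2 fold change −1.38), an RNA-binding protein of splicing, and Slc36a1 (−0.87), a lysosomal amino acid transporter. The next gene, Prpf38b (−1.16), a splicing factor, was the first outside the 3 lower genes with the smallest p. In bulk kidney RNA, fewer cells of a type that expresses a gene and less of its RNA per cell cannot be told apart.

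**Figure D1:**
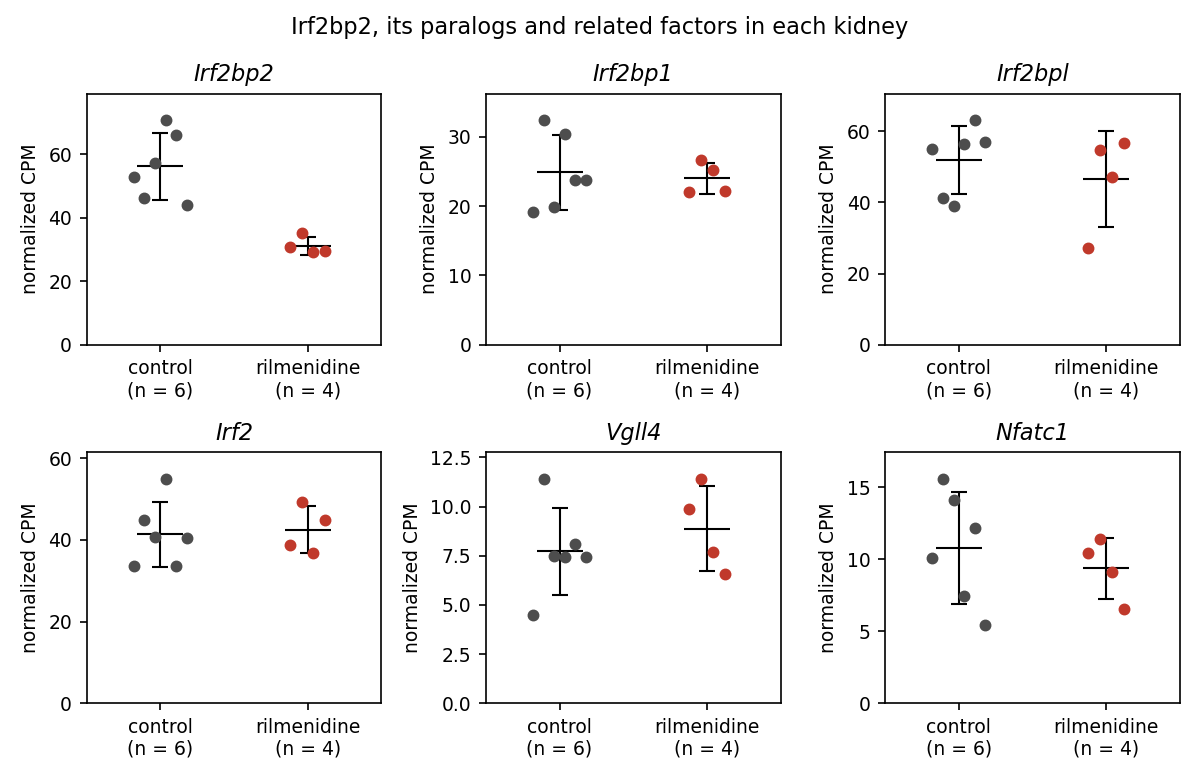
Normalized CPM (vertical axes, starting at 0) of Irf2bp2, Irf2bp1, Irf2bpl, Irf2, Vgll4 and Nfatc1 in each of 6 control and 4 rilmenidine kidneys, 1 point per kidney, with the bar at the group mean and its SD. The points of the groups are apart for Irf2bp2, where rilmenidine kidneys reach 35.3 and control kidneys start at 44.1 CPM, and overlap for the other 5 genes.

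The paralogs did not differ detectably. Irf2bp1, a corepressor described together with Irf2bp2, had 19.1, 32.4, 19.9, 30.5, 23.7 and 23.8 CPM in the control kidneys and 22.04, 26.6, 25.2 and 22.2 CPM in the rilmenidine kidneys. The treated values lay inside the control range. Its log2 fold change was −0.07 (SE 0.19, 95% interval −0.46 to 0.33, adjusted p = 0.939 in edgeR's quasi-likelihood test).

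Irf2bpl, the longest coding sequence of the family at 2328 bases, had 55.0, 41.3, 39.0, 56.5, 63.0 and 56.9 CPM in control and 27.3, 54.8, 47.2 and 56.8 CPM in rilmenidine kidneys. Rilmenidine kidney 1 was below every control kidney and the other treated kidneys were within the control range. On the log2 scale the difference was −0.15 (SE 0.20, 95% interval −0.57 to 0.27, edgeR adjusted p = 0.844), and it was 0.02 without that kidney. The difference in response between Irf2bp2 and its paralogs was not tested, because Irf2bp2 was chosen on the same contrast.

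The share of Irf2bp2 among the counts of the 3 paralogs does not depend on the scaling of the libraries. This share is built on the counts that chose the gene, so it is a description and no separate evidence of a difference. In control kidneys 1 to 6 it was 41.6%, 38.5%, 49.3%, 44.8%, 43.2% and 35.3%, and in rilmenidine kidneys 1 to 4 it was 38.4%, 30.2%, 28.6% and 27.1%. The means were 42.1% ± 4.89 (SD, n = 6) and 31.1% ± 5.05 (n = 4), and the groups overlapped because rilmenidine kidney 1 was above control kidney 6. That treated kidney is the one with the low Irf2bpl level, and its share rests on 138 family reads (95% Wilson interval 30.7% to 46.7%, counting error only). The summed level of the 3 genes, which also includes Irf2bp2, was 116 to 157 CPM in control and 80.0 to 117 CPM in rilmenidine kidneys.

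**Figure D2:**
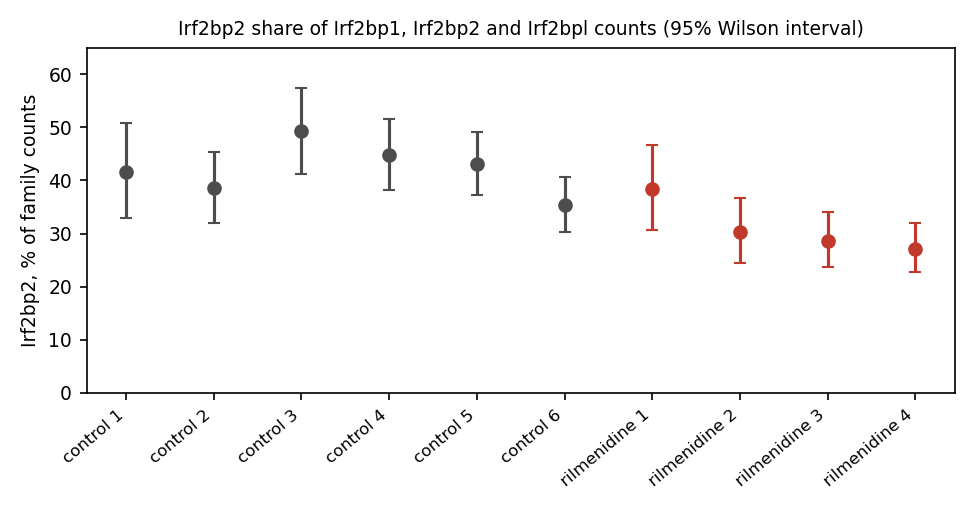
Share of Irf2bp2 among the counts of Irf2bp1, Irf2bp2 and Irf2bpl in percent (vertical axis) for each kidney, with 95% Wilson intervals that cover counting error. Shares are 35.3% to 49.3% in control and 27.1% to 38.4% in rilmenidine kidneys, and rilmenidine kidney 1 lies within the control range. The share includes the counts that chose Irf2bp2.

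Irf2, the transcriptional repressor after which the IRF2BP family is named, was at like levels in both groups. Control kidneys had 33.7, 44.9, 40.7, 55.0, 33.5 and 40.5 CPM and rilmenidine kidneys 38.9, 49.4, 36.7 and 45.0 CPM, so that all treated values lay within the control range. Its log2 fold change was 0.03 (SE 0.16, 95% interval −0.31 to 0.38, edgeR adjusted p = 0.971). Of 9 IRF genes listed, 6 were tested and 0 had an unadjusted p under 0.05, against 10.6% of all genes in either direction. Their log2 fold changes ran from −0.16 for Irf1, an interferon-induced activator, to 0.28 for Irf8, a factor of myeloid cells.

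Vgll4 was measured with few reads, 4 to 22 per library. Control kidneys had 4.49, 11.4, 7.47, 7.43, 8.10 and 7.41 CPM and rilmenidine kidneys 9.86, 11.4, 7.70 and 6.56 CPM. The groups overlapped and counting error alone would give an SD of 2.28 CPM in control, about the SD of 2.20 CPM observed. The fitted log2 fold change was 0.14 with a wide 95% interval of −0.47 to 0.76 (SE 0.29, edgeR adjusted p = 0.919). The gene ends 14 bases from Atg7, an autophagy gene (0.24, adjusted p = 0.791).

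Among the VGLL, TEAD and YAP genes, 10 of 16 listed were tested, and 1 was lower and 0 were higher at an unadjusted p under 0.05, against 6.13% lower and 4.43% higher of all genes. The lower gene was Tead1, a DNA-binding factor through which VGLL4 and YAP act. Tead1 had 111, 68.9, 111, 123, 139 and 83.8 CPM in control and 55.1, 70.0, 65.8 and 86.8 CPM in rilmenidine kidneys. Control kidneys 2 and 6 were at the level of the treated kidneys. Its log2 fold change was −0.60 (SE 0.19, edgeR unadjusted p = 0.00555, adjusted p = 0.286). The highest log2 fold change of the list was 0.16, for the YAP target Ccn1.

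Nfatc1, a calcium-regulated transcription factor on chromosome 18, was also sparse, with 9 to 26 reads per library. Control kidneys had 10.1, 15.6, 14.1, 7.43, 12.1 and 5.46 CPM and rilmenidine kidneys 10.4, 11.4, 9.10 and 6.56 CPM. The treated values fell inside the control range. Its log2 fold change was −0.21 (SE 0.31, 95% interval −0.87 to 0.46, edgeR adjusted p = 0.873), an interval that reaches from a clear decrease to a clear increase at this depth.

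All 9 tested genes of the 11 in the NFAT and calcineurin list had log2 fold changes below 0, as had 4999 of all 10055 tested genes. The median of the list was −0.20 against 0.00 over all tested genes. In the list 1 gene was lower and 0 were higher at an unadjusted p under 0.05, against 6.13% and 4.43% of all genes. The lower gene was Nfat5, which is listed as a member of the NFAT family and drives the response of kidney cells to high salt. It had 75.2, 29.4, 88.0, 89.9, 110.5 and 32.8 CPM in control and 28.4, 39.6, 36.7 and 27.8 CPM in rilmenidine kidneys. The control kidneys split into 4 with high and 2 with low levels, and the low pair, kidneys 2 and 6, lay within the treated range. The log2 fold change of −1.08 (SE 0.32, edgeR unadjusted p = 0.00347, adjusted p = 0.275) therefore comes from 4 of 6 control kidneys. The other 8 genes ranged up to −0.01 for Rcan1, a calcineurin inhibitor that NFAT induces.

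Other corepressors were measured to set Irf2bp2 among genes of the same function. All 21 listed were tested, and 3 were lower and 1 was higher at an unadjusted p under 0.05, against 6.13% and 4.43% of all genes, with a median log2 fold change of −0.06. Ncor1, the scaffold that carries HDAC3 to nuclear receptors, had 245, 218, 276, 293, 318 and 219.9 CPM in control and 162, 200.4, 170.4 and 229.5 CPM in rilmenidine kidneys. Its log2 fold change was −0.45 (SE 0.14, edgeR unadjusted p = 0.00618, adjusted p = 0.293), and rilmenidine kidney 4 lay within the control range.

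Rcor1, the scaffold of the CoREST complex, averaged 104 ± 18.04 CPM in control (SD, n = 6) and 71.9 ± 13.0 CPM in rilmenidine kidneys (n = 4), a log2 fold change of −0.52 (SE 0.16, edgeR adjusted p = 0.285). Nrip1, a nuclear receptor corepressor of metabolic genes, averaged 71.6 ± 17.95 and 53.7 ± 9.33 CPM (−0.42, SE 0.19, edgeR adjusted p = 0.447). Both overlapped between the groups. The higher gene was Cbfa2t3, an ETO-family corepressor, at 5.87 ± 2.96 and 9.91 ± 1.74 CPM (0.73, SE 0.34, edgeR unadjusted p = 0.0472, adjusted p = 0.466). It had at most 27 reads in a library, and its unadjusted p passed 0.05 when all 10 kidneys were used but not in 8 of the 10 fits without 1 kidney.

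Vegfa and Klf2 have been described as genes that respond to IRF2BP2 in other tissues. Vegfa, the endothelial growth factor, had 110, 80.3, 142, 137, 163 and 83.8 CPM in control and 81.8, 80.9, 61.2 and 70.0 CPM in rilmenidine kidneys. Control kidneys 2 and 6 were again near the treated kidneys, and the log2 fold change was −0.70 (SE 0.19, edgeR unadjusted p = 0.00235, adjusted p = 0.244). Klf2, an endothelial transcription factor, had at most 15.0 CPM in any kidney and a log2 fold change of −0.43 (SE 0.30, edgeR adjusted p = 0.640).

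Over the 5 lists together, 33 of 48 tested genes had a log2 fold change below 0 and 15 above it, with a median of −0.08, while over all 10055 genes 4999 were below and 5056 above 0. Of the 48 genes, 6 were lower and 1 was higher at an unadjusted p under 0.05, against 6.13% and 4.43% of all genes, and 0 passed the adjusted threshold in edgeR. The 5 members other than Irf2bp2 had a median of −0.07 and 0 of them had an unadjusted p under 0.05.

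**Figure D3:**
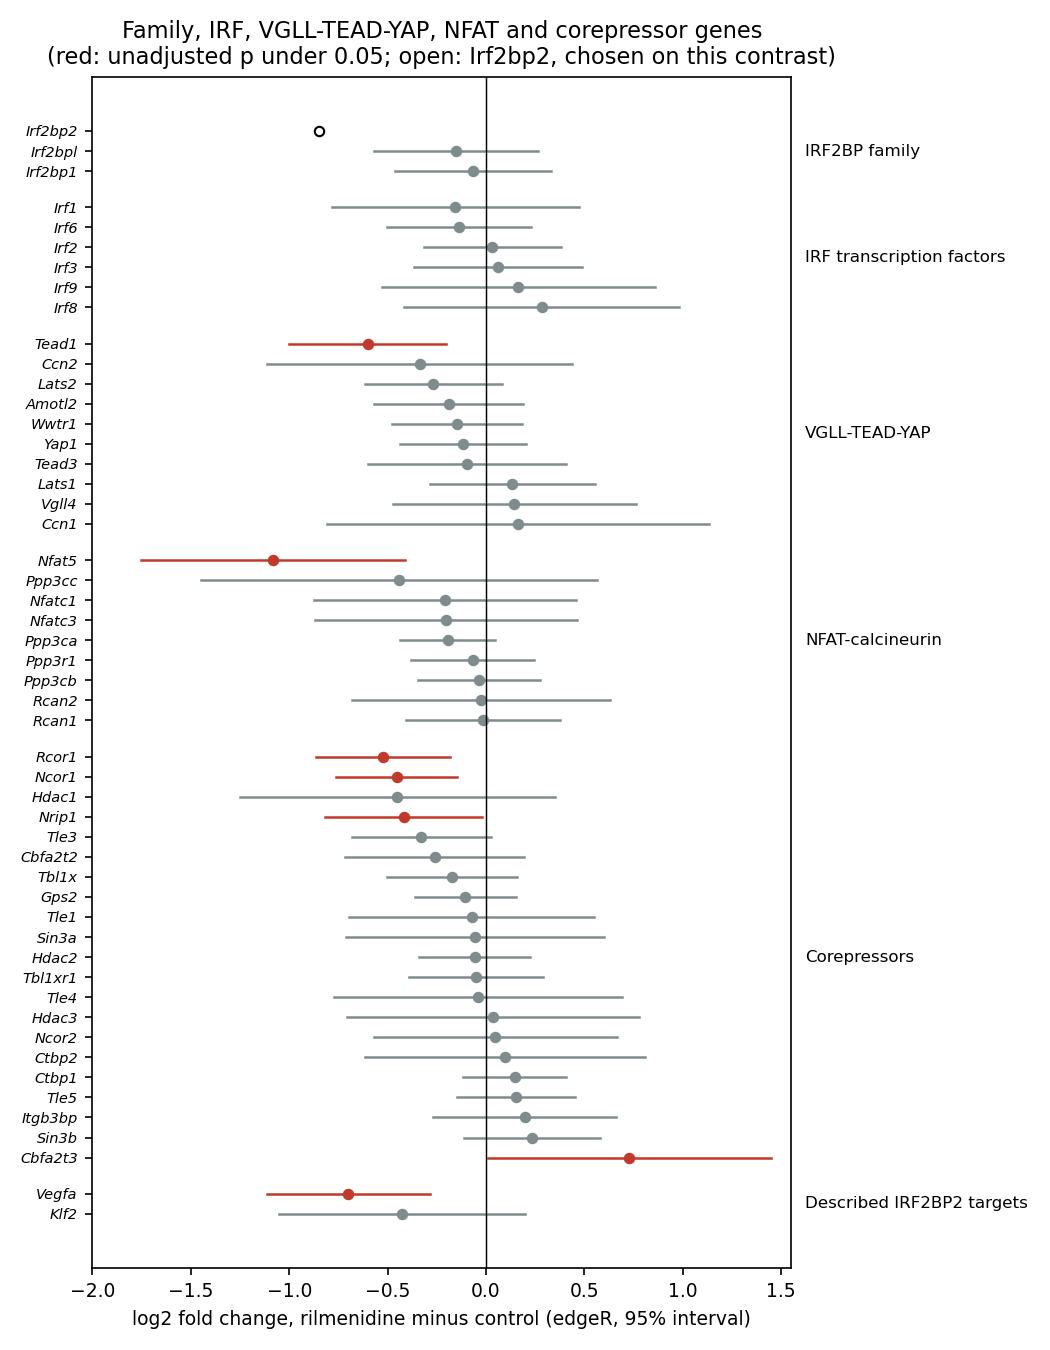
Log2 fold change, rilmenidine minus control (horizontal axis), of each tested gene of the 5 pathway lists, with Irf2bp2 and its paralogs on top, 1 point per gene with its 95% interval and red where the unadjusted p is under 0.05. Irf2bp2, chosen on this contrast, is an open point without an interval. Among the pathway genes Nfat5 (−1.08), Vegfa (−0.70) and Cbfa2t3 (0.73) are farthest out.

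Malat1, an abundant nuclear noncoding RNA, split the kidneys. It stood at 1482, 398, 1182, 1466, 2100.2 and 284 CPM in control kidneys 1 to 6 and at 339, 351, 306 and 393 CPM in rilmenidine kidneys 1 to 4. Control kidneys 1, 3, 4 and 5 formed a high group and the other 6 kidneys a low one, with a gap of 1.57 log2 units of the 2.88 that the kidneys spanned. Because of this split no correlation with Malat1 over all kidneys is given.

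Control kidneys 2 and 6, the low pair in Malat1, were also the lowest controls in Irf2bp2, at 46.1 and 44.1 CPM. The 4 treated kidneys, also low in Malat1, had 29.0 to 35.3 CPM, and that they lie below every control is what chose the gene. The level of Nfat5 in the same pair of control kidneys (29.4 and 32.8 CPM) lay among the treated kidneys. Irf2bpl did not follow the split, since control kidney 6 had 56.9 CPM and control kidney 3 had 39.0 CPM.

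A fit with the group as a term gave an Irf2bp2 slope of 0.21 log2 units per log2 unit of Malat1 (SE 0.075, 95% interval 0.05 to 0.37, edgeR adjusted p = 0.187). In the control kidneys alone it was also 0.21 (SE 0.079, edgeR adjusted p = 0.194). The rilmenidine kidneys spanned only 306 to 393 CPM of Malat1. The slopes of this fit therefore rest mainly on 4 high against 2 low control kidneys and are no test of a graded relation. Across all genes 0.925% had a slope with an adjusted p under 0.05. The slopes of Irf2bp1 (−0.08, SE 0.11), Irf2bpl (0.08, SE 0.11), Irf2 (−0.03, SE 0.096), Vgll4 (−0.13, SE 0.17) and Nfatc1 (0.09, SE 0.19) had edgeR adjusted p-values of 0.752 to 0.909. Nfat5 had a slope of 0.65 (SE 0.098, edgeR adjusted p = 0.00675), 1 of 48 list genes past the adjusted threshold. This call was lost without control kidney 2 (adjusted p = 0.0966), 5 (0.0675) or 6 (0.0841), over a range of 0.0068 to 0.0966 in the fits without 1 kidney. The call was also lost with the replicate number as a block (slope 1.03, SE 0.21, edgeR adjusted p = 0.184). At an unadjusted p under 0.05, 12 of the 48 genes had a positive and 3 a negative slope, against 8.2% and 7.84% of all genes.

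With Malat1 in the model the log2 fold change of Irf2bp2 was −0.55 (SE 0.17), a change of over 1.5 times on the log2 scale, and with library size in the model it was −0.68 (SE 0.20). The log2 fold change of Nfat5 went to −0.03, that of Tead1 to −0.16 and that of Vegfa to −0.20 with Malat1 in the model, and 0 of the 6 lower list genes then had an unadjusted p under 0.05. Malat1 itself had a log2 fold change of −1.73 (SE 0.42, edgeR adjusted p = 0.211). Among the controls only kidneys 2 and 6 were as low in Malat1 as the treated kidneys. These fits therefore compare the groups at like Malat1 levels only through that pair. Whether the quantity behind the Malat1 split has a part in the difference of Irf2bp2 was not tested.

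**Figure D4:**
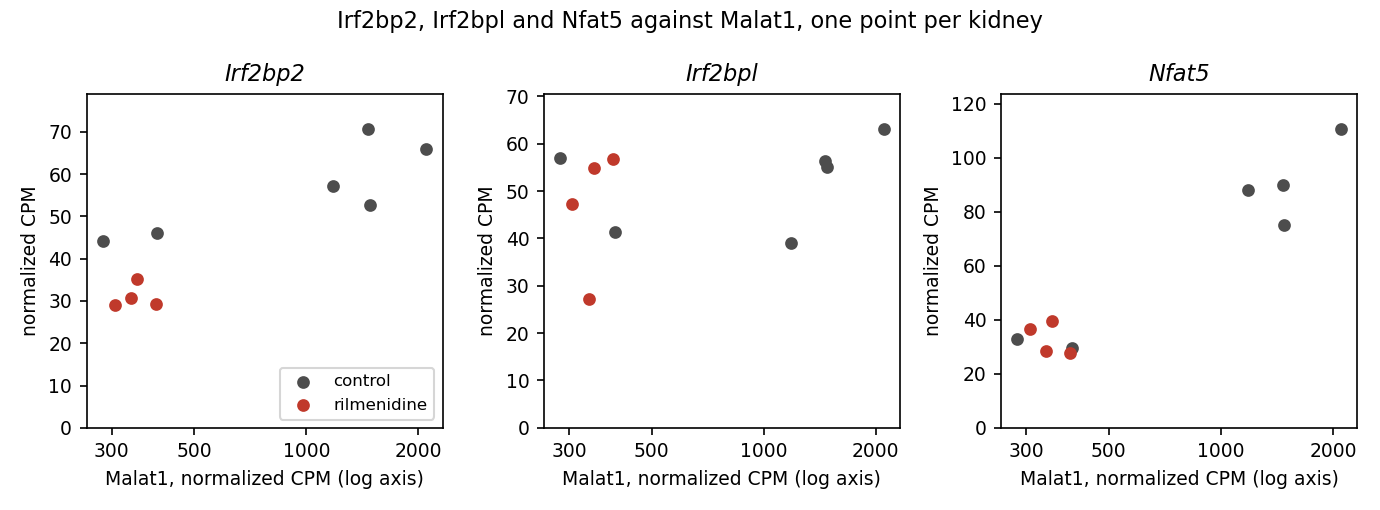
Normalized CPM of Irf2bp2, Irf2bpl and Nfat5 (vertical axes, starting at 0) against normalized CPM of Malat1 (horizontal, log axis), 1 point per kidney. The 2 control kidneys low in Malat1 have 44.1 and 46.1 CPM of Irf2bp2, the rilmenidine kidneys 29.0 to 35.3 CPM, and for Nfat5 that control pair lies among the rilmenidine kidneys.

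The genes whose levels were most like that of Irf2bp2 were found among 5821 tested genes of at least 20 CPM, by Pearson's r of log2 CPM over the 10 kidneys. They were Luc7l2 (r = 0.964), a splicing factor, Map4k2 (0.954), a kinase, Khdc4 (0.953), Kmt5c (0.952), a histone methyltransferase, and Slc36a1 (0.951). Luc7l2, for instance, had 34.8 to 60.9 CPM in control and 18.9 to 26.9 CPM in rilmenidine kidneys. Neat1, another nuclear noncoding RNA, had rank 21 (0.920), whereas Irf2bpl (0.344), Irf2bp1 (0.102) and Irf2 (0.0233) had ranks 1564, 2365 and 2604. With the group means removed the leading genes were 1600020E01Rik (0.968), Fnbp4 (0.966), Rbmx (0.958), Usp25 (0.951) and Flcn (0.950). These correlations are descriptions over kidneys that share their libraries, the first set also shares the difference between the groups, and the control kidneys low in Malat1 were also low in Irf2bp2.

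Of the neighbours of Irf2bp2 on chromosome 8, Tarbp1, 113231 bases away on one side, had 11 counts in all libraries together. Tomm20, a mitochondrial import receptor 336681 bases away on the other side, had a log2 fold change of 0.10 (SE 0.19, edgeR adjusted p = 0.911). An antisense gene, Gm26759, overlaps 1039 exonic bases of Irf2bp2 and had 1 count in all 10 libraries. The strand setting of the counting is not stated, so reads of the 2 genes in that stretch cannot be told apart.

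The tissue was checked because the extraction text of the labels speaks of liver. The tubule markers Kap, Slc34a1 and Umod had at least 28005, 5478 and 1293 counts in every library, while the liver markers Alb and Apoa1 had at most 20 and 4. Of the tubule markers, Umod (log2 fold change 0.61) and Aqp2 (0.58) were higher and Slc12a3 (−0.55) was lower at an unadjusted p under 0.05, 3 of 8 markers against 4.43% higher and 6.13% lower of all genes. Endothelial markers summed to 175 to 306 CPM in control and 251 to 299 CPM in rilmenidine kidneys, leukocyte markers to 49.0 to 205 and 107 to 122 CPM, and podocyte markers to 58.1 to 93.2 and 63.4 to 89.9 CPM. In these 3 lists 0 of the tested genes had an unadjusted p under 0.05, and 0 of their genes were at 0 in all libraries. Their part in the difference of Irf2bp2 was not tested.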

How the data were processed

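The deposited values are counts of reads per Ensembl gene, made by the authors with bcl2fastq 1.8.4, Trimmomatic 0.32, STAR 2.5.2b and featureCounts 1.5 on mm10, per the submitters' processing notes in the labels. The annotation release, the strand setting and the handling of molecular identifiers are not given in the sources used here. The supplementary methods name more control mice than the 6 analysed here. Genes reaching a minimum of 6 reads in 66.6% or more of the libraries were kept, scaled by RLE and tested in edgeR 4.0.16 (R 4.3.3, quasi-likelihood test, all 10 libraries, no covariate), with p-values adjusted by Benjamini-Hochberg over all tested genes. CPM are counts scaled to a common effective library size, and a prior count of 2 was added before taking log2. Nothing says how the kidneys of a group were processed, so p-values measure the spread between these libraries. Genes were matched to GENCODE M21 (42548 of 43629), and all 104 list genes matched.

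The 6 genes and the gene lists were chosen with earlier results of these data known. Named genes are the 6, Malat1, list genes with an unadjusted p under 0.05 or at the ends of a list, the 5 most like Irf2bp2 in each of 2 rankings, its neighbours in rank and on the chromosome. Further lists of markers of kidney tubule, podocyte, endothelial, leukocyte, fibroblast and mural, blood and liver cells were measured. The scripts were tested on simulated data, and other scalings, filters, tests, covariates and left-out kidneys were tried.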

Additional observations from a re-analysis of the deposited data

Results flagged for a closer look

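In 62 groups of kidneys checked for a single kidney far from the others, 2 had one, and chance gives about 1 in 20. Prpf38b, a splicing factor with rank 4 by p among the lower genes, had 39.9 CPM in rilmenidine kidney 3 against 58.1 to 58.6 CPM in the other treated kidneys. Fnbp4, whose level was among the most like that of Irf2bp2 with the group means removed, had 20.6 CPM in rilmenidine kidney 2 against 10.3 to 11.2 CPM in the others. None of the 6 genes had such a kidney.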

How the results depend on the processing

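The number of genes with an adjusted p under 0.05, 0 in edgeR's quasi-likelihood test (1061 at an unadjusted p under 0.05), was 241 with every gene of at least 1 count, 60 in DESeq2, 44 in the likelihood ratio test and 0 to 37 when 1 kidney was left out (33 without control kidney 2, 37 without control kidney 6, 6 without rilmenidine kidney 1). With the replicate number as a block it was 3, although same-numbered kidneys did not deviate together (correlations −0.08 to 0.08) and none of the 4 same-numbered pairs correlated best with each other. The log2 fold change of Irf2bp2, whose sign the choice of the gene fixes, was −0.55 with Malat1 as a covariate and −0.92 to −0.77 without 1 kidney. Values near 0 changed sign: Irf2 was −0.0075 with Malat1 and −0.036 with the block, Vgll4 was −0.025 with Malat1, and Nfatc1 was 0.12 with library size. Without 1 kidney, Irf2bp1 ran from −0.12 to 0.023, Irf2bpl from −0.27 to 0.022, Irf2 from −0.042 to 0.13, Vgll4 from 0.00094 to 0.29 and Nfatc1 from −0.38 to −0.06, and their edgeR adjusted p-values were at least 0.592. The count of lower list genes, 6, was 2 with library size (Ncor1, and Tle3, which was not among the 6), 0 with Malat1, 8 in the 7 libraries with at least 10 CPM of olfactory and vomeronasal receptor genes (without Nrip1, and with Amotl2, Tbl1x and Tle3, named after their values were seen), 5 with the block and 5 to 6 without 1 kidney. Those 7 libraries left out control kidney 6 and rilmenidine kidneys 3 and 4, with 6.64, 4.27 and 6.81 CPM of the receptor genes. Only rilmenidine kidneys 1 and 2 remained in the treated group. The libraries that were kept had 45.7 to 387 CPM of the receptor genes. The count of higher list genes was 1 in edgeR's quasi-likelihood test. It was 0 with at least 10 counts in every library, in DESeq2, with library size, with Malat1 and with the block. In those 7 libraries it was also 0, and without 1 kidney it was 0 to 2. The Irf2bp2 slope on Malat1 was 0.18 to 0.23 without 1 kidney and 0.33 (SE 0.21) with the block, and its adjusted p did not pass 0.05 in any setting. That of Nfat5 was 1.03 with the block, with an edgeR adjusted p of 0.184, against a range of 0.00358 to 0.184 over all its settings. The causes were not tested. Vgll4 and Nfatc1 have no value with at least 10 counts in every library. These 2 genes had at most 26 reads a library. With TMM scaling 0 genes had an adjusted p under 0.05 in edgeR and 1071 an unadjusted p under 0.05. The list genes called in the comparison of the groups were unchanged.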

Other observations

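At an unadjusted p under 0.05 in edgeR, 3 of 48 list genes had a negative slope on Malat1, against 7.84% of all genes. Of the 3, 2 were IRF genes. These were Irf8, a factor of myeloid cells (−0.49 log2 units per log2 unit of Malat1, SE 0.17, edgeR adjusted p = 0.159), and Irf9, which carries interferon signals to DNA (−0.42, SE 0.17, edgeR adjusted p = 0.247). The other was Tle5, a short relative of the Groucho corepressors (−0.18, SE 0.064, edgeR adjusted p = 0.189). None passed the adjusted threshold. Markers of fibroblast and mural cells summed to 40.7 to 91.7 CPM in control and 49.3 to 59.8 CPM in rilmenidine kidneys, and the 3 globin genes to 888 to 7835 and 2530 to 3651 CPM.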
